A study of Homo sapiens with 9 samples.

Results

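The genes described here are 34 human genes of sterol synthesis, sterol uptake and transport, and sterol efflux, chosen by symbol among the 60606 genes of a bulk RNA-seq table. They comprised 7 genes of the mevalonate steps, 11 of the squalene and sterol steps, and 5 that encode or control the transcription factors SREBP1 and SREBP2. The others were 6 of sterol transport and storage, and 5 of the oxysterol receptors (LXRs) and efflux. U87, GSC and Diff populations, all of 1 glioblastoma cell line, were sequenced in 3 libraries each, 9 in all. U87 cells were the unselected wild-type line, grown in DMEM with 10% fetal bovine serum. GSCs were radioresistant glioblastoma stem cells derived from U87, irradiated in 13 cycles of 5 Gy and kept in serum-free DMEM/F12 with B27 and with bFGF and EGF at 20 ng/ml each. Diff cells were radioresistant glioblastoma cells obtained from those irradiated GSCs by exposure to 10% serum and selection from clonal communities. U87 and Diff cells shared serum medium, but Diff cells had also been irradiated, kept as stem cells and selected from clonal communities, and these cannot be told apart. In GSCs against U87, medium, irradiation and stem-cell culture cannot be told apart either. Nor can medium, differentiation and selection from clonal communities be told apart in Diff cells against GSCs.

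Cells obtain cholesterol by synthesis from acetyl-CoA through mevalonate, squalene and lanosterol, and by uptake of lipoproteins that are broken down in lysosomes. When membrane sterol is low, SCAP escorts SREBP from the endoplasmic reticulum to the Golgi for cleavage, and the released factor raises transcription of synthesis and uptake genes; INSIG proteins hold the complex back when sterol is ample. LXRs act in the other direction: bound by oxysterols, they induce exporters such as ABCA1. Glioblastoma cells are known for their dependence on cholesterol, which in the brain is supplied largely by astrocytes.

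Values are TPM, transcripts of a gene per 1000000 after division by gene length and library total, so that levels of different genes can be compared. Fold changes were taken on the deposited log2(TPM + 1) scale and are given with the standard error (SE) of limma. That scale understates changes of genes with low TPM, most of all near 1 TPM. Folds of such genes, SC5D and ACAT2 among them, are therefore below the ratio of their mean TPM. Calls required an adjusted p (Benjamini-Hochberg) under 0.05 over the 22909 genes with a mean TPM over 1. Of the 34 genes, 33 passed that filter; ABCG1, an exporter of the LXR pathway, was listed at 0.0214 TPM in GSC library 2, at 0.0190 TPM in Diff library 1 and at 0 in the other 7 libraries, and received no test. Nothing in the records states that the 3 libraries of a group came from separate cultures, so p-values measure only the spread between these libraries.

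The noncoding RNA RN7SL1 held 5.73% to 9.79% of all TPM and mitochondrial genes 25.9% to 31.8%. No library was left out. Among markers of neural stem cells, PROM1 averaged 0.171 TPM in U87, 0.507 TPM in GSCs and 0.0236 TPM in Diff cells and SOX2 0.0383, 0.879 and 0.153 TPM, all under 1 TPM, while FABP7 averaged 0.731, 4.91 and 2.86 TPM and NES 33, 22.6 and 13.5 TPM. OLIG2 averaged 7.27, 8.75 and 5.37 TPM and POU3F2 0.181, 3.25 and 6.48 TPM. The glioblastoma markers were abundant in all 3 populations but moved apart: VIM averaged 1640, 1214 and 616.2 TPM in U87, GSCs and Diff cells and CD44 405.1, 427.4 and 295.6 TPM, both called lower in Diff cells than in U87, while CHI3L1 rose from 107.3 TPM to 557.4 TPM in GSCs and 1809 TPM in Diff cells. Markers of microglia and oligodendrocytes did not pass the filter (0 of 4 each), 1 of 4 astrocyte markers (GFAP) did, and 2 of 4 neuronal markers (TUBB3 and MAP2) did. Of the endothelial markers VWF averaged 0.527, 11.4 and 1.75 TPM and PECAM1 2.77, 6.25 and 2.92 TPM, higher in GSCs in both cases, and CDH5 stayed at 0.312 TPM or less on average; the part of these differences in the results on sterol genes was not tested.

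Most sterol genes were higher in GSCs than in U87. Of the 33 tested genes, 26 were called higher and 4 (PMVK, INSIG2, SREBF1 and ABCA1) lower, where 25.3% of all 22909 genes were called higher and 23.3% lower. The 17 genes that were over 2-fold higher compare with 9.52% of all genes, and the 1 gene over 2-fold lower (PMVK) with 7.53%. The median log2 fold change was 1.13 over the 33 genes and 0.017 over all genes. In bulk RNA, more cells with a transcript and more transcript per cell cannot be told apart.

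In Diff cells synthesis genes were called in both directions against U87, and 5 of 6 transport genes were called higher. Over the 33 genes, 17 genes were called higher and 6 lower, where 18.9% and 20.5% of all genes were; 3 genes exceeded 2-fold upward (5.92% of all genes) and 2 downward (6.36%). Against GSCs, 3 genes were called higher, where 15% of all genes were, and 24 lower, where 19.8% were; 1 gene was over 2-fold higher (2.66% of all genes) and 15 were over 2-fold lower (5.36%). The medians were 0.27 against U87 and -0.85 against GSCs, with -0.036 and -0.056 over all genes. A total of 7 genes (HMGCS1, IDI1, FDPS, EBP, STARD4, SREBF1 and ABCA1) was called in opposite directions in GSCs and in Diff cells against U87 and called between them as well, as were 1.94% of all genes. The comparisons share libraries in pairs and are therefore not independent of each other.

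**Figure D1:**
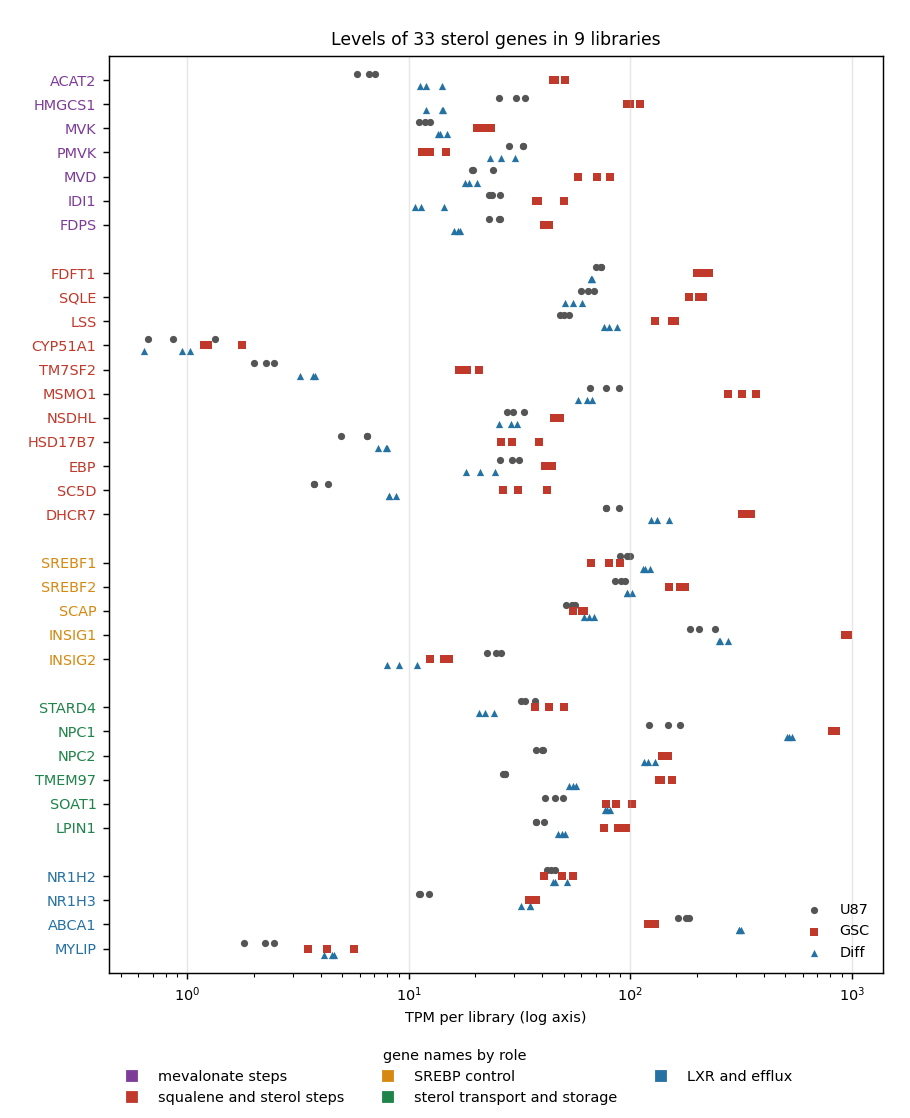
TPM of the 33 tested genes in every library on a log axis, with genes in rows grouped by role; grey circles are U87, red squares GSCs and blue triangles Diff cells. Red squares lie to the right of grey circles for most synthesis and transport genes, PMVK, INSIG2 and ABCA1 lie the other way, and the scale runs from CYP51A1 near 1 TPM to INSIG1 and NPC1 at means of 943.2 and 824.2 TPM in GSCs.

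**Figure D2:**
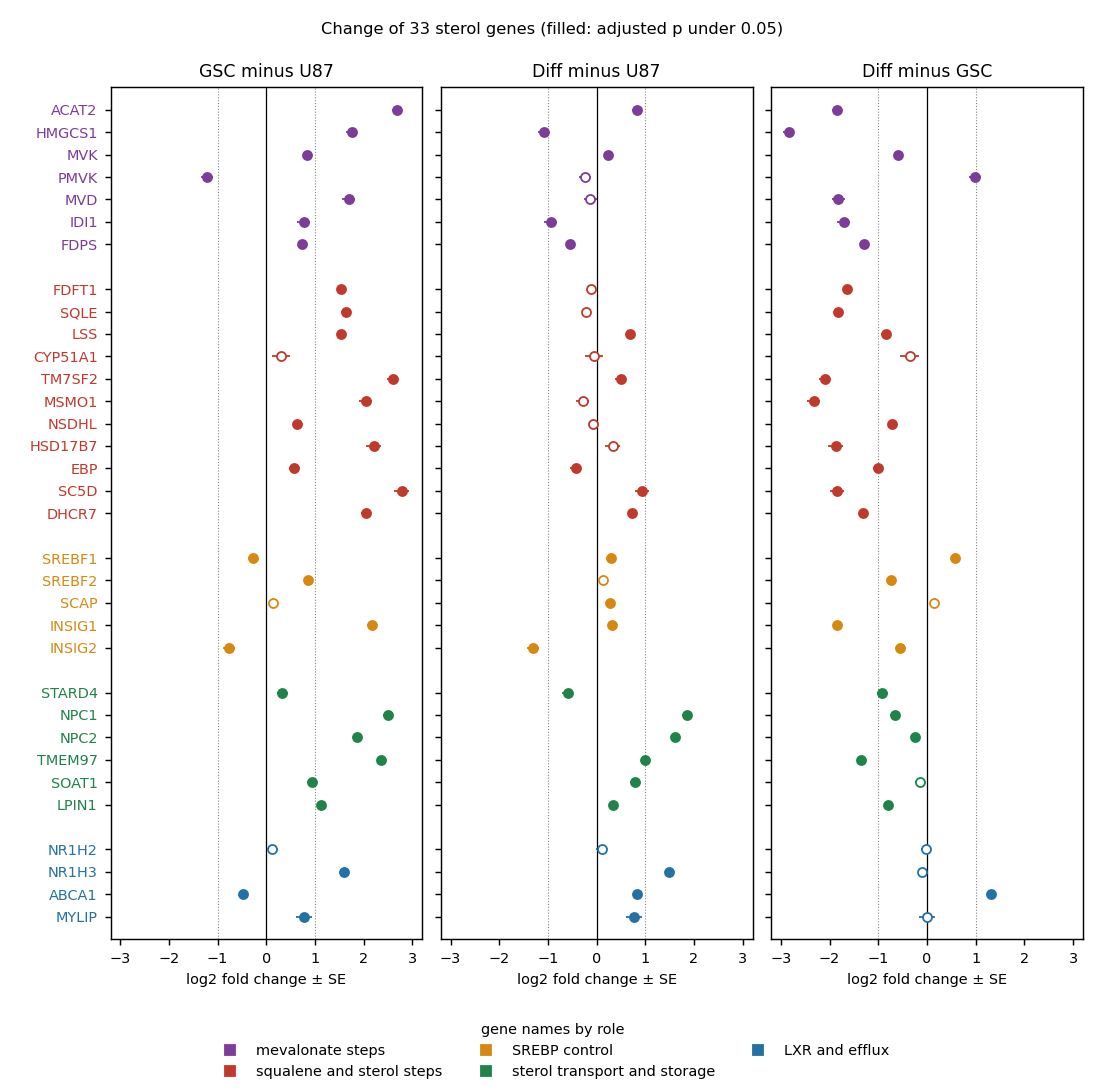
Log2 fold change with its SE for the 33 genes in each of the 3 comparisons; filled points have an adjusted p under 0.05 and dotted lines mark a 2-fold change. Of the 33 points, 26 are called to the right of 0 in GSCs against U87 and 24 are called to the left of 0 in Diff cells against GSCs.

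Promoter sequences were inspected because so many of these genes moved together, after the expression values had been seen. RefSeq windows (GRCh38.p14) of 300 bases, from 250 before to 50 after an annotated start, were present for 30 of the 34 genes, 8 of which had several; FDFT1, SQLE, ACAT2 and ABCG1 had none. The 8 promoters below show the 200 bases before the start, 5′ to 3′ on the strand of the gene. HMGCS1, MSMO1, MVD, TMEM97 and SREBF2 were called higher in GSCs than in U87, and PMVK, INSIG2 and ABCA1 lower. Capitals mark CCAAT, the motif of the factor NF-Y, read on either strand (ATTGG on the other), and in SREBF2 also TCACNCCAC, a form of the sterol regulatory element bound by SREBPs. These 8 promoters were picked by hand and not by a rule, so the contrast among them is no evidence about the motif. NPC1 and LPIN1, called higher in GSCs without CCAAT in any window, are not shown.
HMGCS1, chr5:43313413-43313612, minus strand: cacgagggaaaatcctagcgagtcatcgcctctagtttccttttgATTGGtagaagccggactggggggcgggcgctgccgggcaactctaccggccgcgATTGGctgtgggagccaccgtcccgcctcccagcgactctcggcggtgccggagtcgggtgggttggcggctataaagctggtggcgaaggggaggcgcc
MSMO1, chr4:165327469-165327668, plus strand: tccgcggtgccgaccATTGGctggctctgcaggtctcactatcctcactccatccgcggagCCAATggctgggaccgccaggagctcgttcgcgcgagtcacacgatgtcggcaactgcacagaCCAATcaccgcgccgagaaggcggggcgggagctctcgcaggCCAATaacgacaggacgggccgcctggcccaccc
MVD, chr16:88663092-88663291, minus strand: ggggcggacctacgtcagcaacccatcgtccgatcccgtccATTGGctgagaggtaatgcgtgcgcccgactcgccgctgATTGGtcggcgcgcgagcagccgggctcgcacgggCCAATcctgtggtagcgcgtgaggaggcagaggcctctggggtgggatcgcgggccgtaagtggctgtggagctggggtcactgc
TMEM97, chr17:28319000-28319199, plus strand: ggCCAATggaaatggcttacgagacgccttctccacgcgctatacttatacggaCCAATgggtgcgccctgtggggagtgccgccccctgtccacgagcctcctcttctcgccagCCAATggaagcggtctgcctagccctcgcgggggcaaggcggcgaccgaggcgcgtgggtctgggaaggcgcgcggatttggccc
SREBF2, chr22:41832905-41833104, plus strand: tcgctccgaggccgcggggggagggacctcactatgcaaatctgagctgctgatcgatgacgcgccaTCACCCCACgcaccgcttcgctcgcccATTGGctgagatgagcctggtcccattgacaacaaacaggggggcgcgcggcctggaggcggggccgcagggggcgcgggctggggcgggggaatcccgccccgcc
PMVK, chr1:154936720-154936919, minus strand: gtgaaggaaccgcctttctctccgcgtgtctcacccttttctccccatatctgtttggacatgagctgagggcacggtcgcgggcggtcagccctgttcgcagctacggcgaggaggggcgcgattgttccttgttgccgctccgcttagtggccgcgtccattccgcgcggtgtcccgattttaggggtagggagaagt
INSIG2, chr2:118088271-118088470, plus strand: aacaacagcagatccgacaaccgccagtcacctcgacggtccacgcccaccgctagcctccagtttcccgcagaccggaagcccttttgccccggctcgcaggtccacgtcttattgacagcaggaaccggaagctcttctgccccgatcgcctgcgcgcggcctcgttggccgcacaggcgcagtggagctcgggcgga
ABCA1, chr9:104928156-104928355, minus strand: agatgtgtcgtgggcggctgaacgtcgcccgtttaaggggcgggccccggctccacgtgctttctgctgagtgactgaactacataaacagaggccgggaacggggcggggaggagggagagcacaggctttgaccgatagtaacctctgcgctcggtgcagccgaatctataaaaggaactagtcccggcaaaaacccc

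A total of 7 patterns was searched on both strands. CCAAT lay in 34.6% of all 35116 RefSeq windows. Counting a gene when any of its windows held it, CCAAT was present in 21 of the 30 genes (70%) and in 42.1% of 15842 protein-coding genes. The GC box GGGCGG lay in 29 of 30 genes, 64.3% of protein-coding genes and 45% of all windows. TCACNCCAC lay in 1 gene, SREBF2, and in 1.13% of all windows; the looser TCACNCNAC, which includes it, lay in FDPS, HSD17B7 and SREBF2 and in 2.55% of windows. The E-box palindrome TCACGTGA lay in INSIG1 and in 0.98% of windows. Exact direct repeats of AGGTCA with 4 bases between, and the same without the first A, lay in none of the 30 genes and in 0.0199% and 0.057% of windows. For all 7 patterns, sequences that differ in any fixed letter were not searched for. A gene without a match may therefore still hold such an element. This covers the sterol regulatory element in all genes but those named, and the repeats in every gene, ABCA1 included.

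All 21 genes with CCAAT in any window were called higher in GSCs than in U87, against 2 of the 9 without it (NPC1 and LPIN1). The split depended on which start was used: with only the first listed window it was 19 of 19 against 4 of 11, and with only the last 17 of 17 against 6 of 13, because IDI1 and NR1H3 held the motif in some windows only and others changed sides likewise. Among all tested protein-coding genes with a window no such split was seen, with 29.3% of 4374 genes with CCAAT and 30.2% of 5646 genes without it called higher in GSCs. In Diff cells against U87, 11 of 21 and 5 of 9 were called higher, and 25% and 26% of those protein-coding genes with and without CCAAT. Of the synthesis enzymes with a window, all but PMVK and CYP51A1 held CCAAT, while most genes without it had other roles. Motif and role thus overlapped, and their parts in the split were not separated. FDFT1, SQLE and ACAT2, called higher in GSCs, had no window and were not counted. The pattern was found by searching among 7 motifs on a list known to have moved, no test was made of it, and a match of letters is not a bound site.

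The mevalonate steps build the isoprenoid units of sterols. In GSCs 6 of the 7 genes were called higher than in U87 and 1 lower, where 25.3% and 23.3% of all genes were. Summed TPM rose from 149.4 ± 7.95 (SD, n = 3) in U87 to 338.4 ± 5.41 in GSCs, and was 114.2 ± 8.04 in Diff cells. In Diff cells against U87, 2 genes were called higher and 3 lower, where 18.9% and 20.5% of all genes were.

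HMGCS1, which joins acetoacetyl-CoA and acetyl-CoA to HMG-CoA, stood at 30.4, 33.5 and 25.5 TPM in U87, at 100.1, 96.3 and 110.9 TPM in GSCs and at 14.3, 12 and 14.1 TPM in Diff cells. The 3 groups did not overlap, with GSCs on top and Diff cells below U87. Its log2 fold change was 1.75 ± 0.11 (SE, adjusted p 2.84e-06 by limma) in GSCs against U87 and -1.09 ± 0.11 (adjusted p 7.34e-05) in Diff cells against U87. The difference between Diff cells and GSCs was -2.84 ± 0.11 (adjusted p 1.04e-06), a 7.16-fold fall and the largest of the 33 genes in that comparison.

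IDI1, the isomerase that makes dimethylallyl diphosphate, stood at 23.0, 25.9 and 23.65 TPM in U87, at 38.3, 37.6 and 50.2 TPM in GSCs and at 14.4, 10.7 and 11.4 TPM in Diff cells. FDPS, which condenses isoprenoid units to farnesyl diphosphate, stood at 25.5, 25.9 and 23.1 TPM in U87, at 42.9, 42.5 and 40.7 TPM in GSCs and at 16, 17.1 and 16.65 TPM in Diff cells. Both genes thus had the order of HMGCS1, without overlap. IDI1 changed by 0.76 ± 0.14 in GSCs (adjusted p 0.00161) and by -0.945 ± 0.14 in Diff cells (adjusted p 0.000624) against U87. FDPS changed by 0.74 ± 0.063 (adjusted p 1.86e-05) and by -0.56 ± 0.063 (adjusted p 0.000146). The annotation names 3 pseudogenes of IDI1 and 8 of FDPS, the most abundant of which averaged 5.54% and 5.93% of the parent's TPM, and reads shared with them could not be separated.

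PMVK, which adds the second phosphate to mevalonate, ran against the rest of its pathway. It stood at 32.8, 28.35 and 32.7 TPM in U87, at 12.5, 14.75 and 11.5 TPM in GSCs and at 26.0, 23.3 and 30.3 TPM in Diff cells. The GSC libraries lay below all others, and the U87 and Diff libraries overlapped. Its log2 fold change in GSCs was -1.22 ± 0.12 (2.33-fold lower, adjusted p 4.47e-05), that between Diff cells and GSCs was 0.985 ± 0.12 (adjusted p 0.000375), and that between Diff cells and U87 was -0.24 ± 0.12 (adjusted p 0.158).

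ACAT2, the cytosolic thiolase that makes acetoacetyl-CoA, averaged 6.51 ± 0.606 TPM in U87, 47.1 ± 3.04 TPM in GSCs and 12.4 ± 1.5 TPM in Diff cells, and was higher in GSCs than in U87 by 2.68 ± 0.10 (6.41-fold, adjusted p 1.79e-07). Of its exon bases, 52.3% lie opposite exons of another gene, TCP1, which ran from 66 to 82.6 TPM, and the strand setting of the counting is not stated. MVD, the decarboxylase of the pathway, averaged 20.9 ± 2.7, 70.1 ± 11.7 and 19 ± 1.23 TPM in U87, GSCs and Diff cells, with a 3.23-fold rise in GSCs (adjusted p 1.01e-05) and a difference of -0.13 ± 0.13 between Diff cells and U87 (adjusted p 0.482). MVK, mevalonate kinase, averaged 11.8 ± 0.7, 21.8 ± 1.6 and 14.1 ± 0.7 TPM. Its call in Diff cells against U87 (0.23 ± 0.080, adjusted p 0.0448) was lost on leaving out U87 library 1 or 3, GSC library 1 or any Diff library, with values from 0.195 to 0.259 and adjusted p from 0.0664 to 0.148.

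The squalene and sterol steps fold the carbon chain into lanosterol and trim it to cholesterol. In GSCs 10 of the 11 genes were called higher than in U87, 8 of them over 2-fold, and the other, CYP51A1, was not called. Of all genes, 25.3% were called higher and 9.52% were over 2-fold higher. Summed TPM of the 11 genes was 418.3 ± 25.1 in U87, 1395 ± 59.1 in GSCs and 472.3 ± 26 in Diff cells, 3.34 times and 1.13 times the U87 value. Diff cells had 4 genes called above U87, 1 below (EBP) and 6 neither, and 10 called below GSCs. Of all genes, 18.9% were called above U87, 20.5% below it and 19.8% below GSCs.

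The genes FDFT1, SQLE and MSMO1 were each over 2-fold higher in GSCs. FDFT1, squalene synthase, averaged 72.6 ± 2.21 TPM in U87, 212.4 ± 12.4 TPM in GSCs and 66.8 ± 0.627 TPM in Diff cells, and SQLE, the epoxidase of squalene, 64.4 ± 4.41, 200.9 ± 14.8 and 55.6 ± 4.69 TPM. MSMO1, a sterol C4 methyl oxidase, stood at 77.6, 88.9 and 66 TPM in U87, at 320, 276.5 and 368.8 TPM in GSCs and at 66.9, 58 and 63.9 TPM in Diff cells. All GSC libraries of MSMO1 lay above those of the other groups, which overlapped. Its log2 fold change was 2.04 ± 0.13 in GSCs against U87 (adjusted p 3.09e-06) and -2.33 ± 0.13 in Diff cells against GSCs (adjusted p 4.81e-06). The differences between Diff cells and U87 did not pass the test for FDFT1 (-0.12 ± 0.053, adjusted p 0.113), SQLE (-0.21 ± 0.083, adjusted p 0.076) and MSMO1 (-0.29 ± 0.13, adjusted p 0.113). Each passed when 1 library was left out, at an adjusted p of 0.0339 without GSC library 3 for FDFT1, 0.0476 without Diff library 3 for SQLE and 0.0449 without U87 library 3 for MSMO1.

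NSDHL and HSD17B7, which act in removal of the C4 methyl groups, averaged 30.1 ± 2.69 and 5.96 ± 0.895 TPM in U87, 47.2 ± 1.54 and 31.4 ± 6.64 TPM in GSCs, and 28.4 ± 2.53 and 7.71 ± 0.39 TPM in Diff cells. Both were called higher in GSCs, NSDHL by 0.63 ± 0.085 (adjusted p 0.000295) and HSD17B7 by 2.21 ± 0.15 (adjusted p 5.29e-06), and neither passed in Diff cells against U87 (adjusted p 0.487 and 0.121). Without GSC library 3, the latter p for HSD17B7 was 0.0432. A pseudogene of it, HSD17B7P2, averaged 3.85 ± 0.566 TPM in U87, 0.268 ± 0.159 TPM in GSCs and 0.182 ± 0.24 TPM in Diff cells. Gene and pseudogene together came to 9.8 ± 1.26, 31.6 ± 6.73 and 7.89 ± 0.508 TPM, so that the rise in GSCs was smaller for the pair than for HSD17B7 alone. In Diff cells the pair averaged below U87, whereas HSD17B7 alone averaged above it. The pair was not tested.

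EBP, the sterol isomerase, stood at 29.3, 31.5 and 25.9 TPM in U87, at 44.3, 44.4 and 41.4 TPM in GSCs and at 18.2, 20.9 and 24.5 TPM in Diff cells. It moved like HMGCS1 on a smaller scale, by 0.57 ± 0.11 in GSCs (adjusted p 0.00237) and -0.43 ± 0.11 in Diff cells (adjusted p 0.0127) against U87, and the groups did not overlap.

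LSS, DHCR7, SC5D and TM7SF2 were called higher than in U87 in both GSCs and Diff cells. LSS, which cyclizes oxidosqualene to lanosterol, averaged 50.3 ± 2.32, 147.8 ± 16 and 81.2 ± 5.26 TPM in U87, GSCs and Diff cells. DHCR7, the reductase that yields cholesterol, stood at 77.4, 89.2 and 77.9 TPM in U87, at 342.9, 349.4 and 318.4 TPM in GSCs and at 124.7, 132.4 and 150 TPM in Diff cells. The 3 groups of DHCR7 were separate, with Diff cells between the others. DHCR7 was higher by 2.04 ± 0.083 in GSCs (adjusted p 2.59e-07) and by 0.73 ± 0.083 in Diff cells (adjusted p 0.000159). SC5D, a sterol desaturase, stood at 4.34, 3.73 and 3.73 TPM in U87, at 31.3, 26.7 and 42.1 TPM in GSCs and at 8.79, 8.18 and 8.19 TPM in Diff cells, a 6.86-fold rise in GSCs (2.78 ± 0.15, adjusted p 1.24e-06; 2.60 without GSC library 3). TM7SF2, a sterol C14 reductase, averaged 2.24 ± 0.232, 18.6 ± 1.99 and 3.56 ± 0.284 TPM, with changes of 2.60 ± 0.11 (adjusted p 3.97e-07) and 0.495 ± 0.11 (adjusted p 0.00819) against U87.

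CYP51A1, the lanosterol demethylase, is uncertain in these files. It was listed at 0.641 to 1.78 TPM over the 9 libraries, its groups gave no call (adjusted p 0.223, 0.845 and 0.182), and in GENCODE 29 79.4% of its exon bases lie in same-strand exons of other annotated genes. The pseudogene CYP51A1P3 ran from 0.606 to 2.91 TPM, above CYP51A1 in most libraries.

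**Figure D3:**
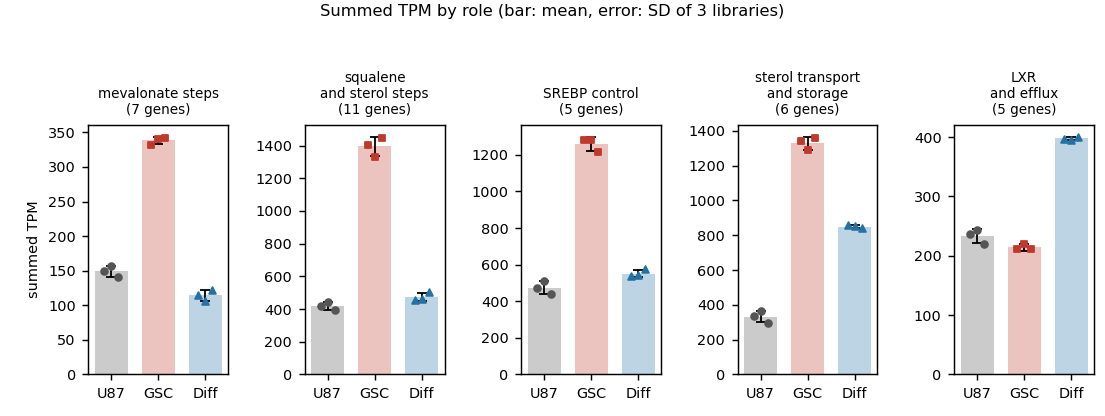
Summed TPM of the genes of each role per library (points), with the mean (bar, from 0) and the SD of 3 libraries. Mevalonate, squalene and SREBP panels have the tallest bar in GSCs (338.4, 1395 and 1260). The SREBP order is set largely by INSIG1, which alone averaged 943.2 TPM in GSCs and 210.5 TPM in U87. The transport panel has Diff cells at 850.1 between U87 at 331 and GSCs at 1330. The efflux panel, mostly ABCA1, has Diff cells highest at 397.8.

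Genes that encode or control SREBP did not move as one. INSIG1, which holds the SREBP complex in the endoplasmic reticulum and is itself an SREBP target, stood at 204.7, 241.7 and 185.2 TPM in U87, at 956.9, 941.6 and 931.1 TPM in GSCs and at 254.1, 252.4 and 276 TPM in Diff cells. Its GSC libraries formed a group of their own, and its Diff libraries lay just above U87. The log2 fold change was 2.17 ± 0.090 in GSCs (4.49-fold, adjusted p 2.73e-07) and 0.32 ± 0.090 in Diff cells (adjusted p 0.0217). The latter call was lost without U87 library 1 (0.300, adjusted p 0.0687), U87 library 3 (0.228, adjusted p 0.0639) or Diff library 3 (0.274, adjusted p 0.0782).

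INSIG2, the second INSIG protein, went the other way. It stood at 24.7, 22.6 and 26 TPM in U87, at 15.2, 14.4 and 12.4 TPM in GSCs and at 10.9, 9.03 and 7.96 TPM in Diff cells. No group overlapped another, and Diff cells were lowest. It fell by 0.765 ± 0.12 on the log2 scale in GSCs (adjusted p 0.000793) and by 1.31 ± 0.12 in Diff cells (adjusted p 4.06e-05), and Diff cells were also below GSCs (-0.55 ± 0.12, adjusted p 0.00789).

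SREBF2, which encodes the SREBP that acts mainly on cholesterol genes, averaged 90.3 ± 4.51, 164.8 ± 13.9 and 98.3 ± 2.86 TPM in U87, GSCs and Diff cells. It rose in GSCs (0.86 ± 0.069, adjusted p 1.31e-05), and the difference in Diff cells was 0.12 ± 0.069 (adjusted p 0.203). SREBF1, which encodes the forms that act on fatty acid genes as well, stood at 97, 100.1 and 89.7 TPM in U87, at 80.5, 89.9 and 66.8 TPM in GSCs and at 113.6, 116.3 and 123.3 TPM in Diff cells. One GSC library reached into the U87 range, and Diff cells were above all others. The calls of SREBF1 against U87 were near the threshold, -0.28 ± 0.10 in GSCs (adjusted p 0.0466) and 0.30 ± 0.10 in Diff cells (adjusted p 0.0439). The first was lost without any single library other than GSC library 2, with -0.165 without GSC library 3 as the smallest change, and the second without any single library other than GSC library 2 or 3, with values from 0.253 to 0.332. The difference between Diff cells and GSCs was 0.58 ± 0.10 (adjusted p 0.00247). SCAP, the escort of SREBP, averaged 54.0 ± 2.35, 59.1 ± 3.62 and 65.3 ± 3.36 TPM and was called higher in Diff cells only against U87 (0.27 ± 0.065, adjusted p 0.0101); against U87 in GSCs it passed without GSC library 3 (0.179, adjusted p 0.0327).

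All 6 sterol transport and storage genes were called higher in GSCs than in U87, where 25.3% of all genes were. In Diff cells against U87, 5 of them were called higher and 1 lower, where 18.9% and 20.5% of all genes were. Summed TPM was 331 ± 32.4 in U87, 1330 ± 36.9 in GSCs and 850.1 ± 9.48 in Diff cells, 4.02 and 2.57 times the U87 value. NPC1 carried much of this sum, and without it the other 5 genes stood at 2.73 and 1.77 times U87. The median log2 fold change of the 6 genes was 1.49 in GSCs and 0.89 in Diff cells. These counts, sums and medians include LPIN1, an enzyme of lipid synthesis rather than a sterol carrier.

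NPC1 and NPC2 hand cholesterol out of the lysosome after lipoprotein uptake. NPC1 stood at 148.7, 167.9 and 121.7 TPM in U87, at 849.4, 811.8 and 811.3 TPM in GSCs and at 538, 519.3 and 511.8 TPM in Diff cells. NPC2 stood at 40.6, 39.95 and 37.7 TPM in U87, at 147, 139.5 and 148 TPM in GSCs and at 115.8, 129.6 and 120 TPM in Diff cells. In both genes every GSC and Diff library lay above every U87 library. NPC1 was 5.66-fold higher in GSCs (2.50 ± 0.10, adjusted p 2.45e-07) and 3.59-fold higher in Diff cells (1.845 ± 0.10, adjusted p 2.13e-06). NPC2 was 3.61-fold higher in GSCs (1.85 ± 0.057, adjusted p 6.14e-08) and 3.04-fold higher in Diff cells (1.60 ± 0.057, adjusted p 2.03e-07). Diff cells were below GSCs for NPC1 (-0.66 ± 0.10, adjusted p 0.00134) and for NPC2 (-0.25 ± 0.057, adjusted p 0.00972), the latter not after median-ratio scaling (-0.183, adjusted p 0.0631).

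TMEM97, a sterol-regulated membrane protein that binds NPC1, averaged 27 ± 0.261 TPM in U87, 142.5 ± 10.7 TPM in GSCs and 54.9 ± 1.98 TPM in Diff cells, 5.12-fold higher in GSCs (adjusted p 2.91e-08) and 2.00-fold higher in Diff cells (0.999 ± 0.061, adjusted p 3.88e-06). SOAT1, which esterifies cholesterol for storage in droplets, averaged 45.6 ± 4.04, 88.3 ± 12.1 and 78.9 ± 2.1 TPM, and the difference between Diff cells and GSCs did not pass (-0.15 ± 0.10, adjusted p 0.282). LPIN1, a phosphatidate phosphatase of lipid synthesis, averaged 38.7 ± 1.83, 86.3 ± 9.76 and 49.1 ± 1.81 TPM. STARD4, a cytosolic sterol carrier, stood at 33.5, 37.1 and 32.2 TPM in U87, at 43, 37.1 and 50.4 TPM in GSCs and at 22, 20.8 and 24.3 TPM in Diff cells. The Diff libraries were below all others, by -0.59 ± 0.11 against U87 (adjusted p 0.00304), and GSCs overlapped U87. The call of STARD4 in GSCs (0.33 ± 0.11, adjusted p 0.0402) was lost without U87 library 1 or 3, GSC library 1 or 3 or Diff library 1, falling to 0.217 without GSC library 3 (adjusted p 0.0982).

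The LXR and efflux genes summed to 397.8 ± 2.67 TPM in Diff cells against 233.2 ± 12.3 in U87 and 214.3 ± 5.49 in GSCs, an order set by ABCA1 alone. Without it the sums were 85.9 ± 2.1 TPM in Diff cells, 57.6 ± 2.25 TPM in U87 and 89.4 ± 7.77 TPM in GSCs. ABCA1, which exports cholesterol to lipid-poor apolipoproteins, stood at 178, 184.2 and 164.3 TPM in U87, at 120.8, 123.8 and 129.9 TPM in GSCs and at 308.7, 310.9 and 316.3 TPM in Diff cells. The 3 groups were separate, in the order GSCs, U87, Diff cells. It changed by -0.49 ± 0.054 in GSCs (adjusted p 9.41e-05) and by 0.83 ± 0.054 in Diff cells (adjusted p 5.44e-06) against U87, and was 2.49-fold higher in Diff cells than in GSCs (1.31 ± 0.054, adjusted p 1.41e-06).

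NR1H3, which encodes LXRα, stood at 11.2, 12.4 and 11.1 TPM in U87, at 37.4, 37.6 and 35 TPM in GSCs and at 32.1, 35.1 and 35.3 TPM in Diff cells. Both radioresistant populations lay above U87 and overlapped each other. NR1H3 was higher by 1.58 ± 0.069 in GSCs (adjusted p 3.68e-07) and by 1.49 ± 0.069 in Diff cells (adjusted p 8.47e-07). NR1H2, which encodes LXRβ, averaged 43.9 ± 1.68, 48.2 ± 7.19 and 47.3 ± 3.82 TPM and passed in no comparison with all libraries; without GSC library 3 its change in GSCs was 0.239 (adjusted p 0.0374). MYLIP, an LXR target that marks lipoprotein receptors for degradation, averaged 2.17 ± 0.328, 4.48 ± 1.11 and 4.4 ± 0.236 TPM and was called higher in GSCs (0.77 ± 0.16, adjusted p 0.00401) and in Diff cells (0.77 ± 0.16, adjusted p 0.00527).

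The 18 synthesis enzymes together came to 567.7 ± 33 TPM in U87, 1734 ± 59.1 TPM in GSCs and 586.5 ± 32.4 TPM in Diff cells, 3.05 and 1.03 times the U87 value. Of these enzymes 16 were called higher and 1 lower in GSCs against U87, where 25.3% and 23.3% of all genes were. For Diff cells the counts were 6 and 4 against U87 (18.9% and 20.5% of all genes), and 1 and 16 against GSCs (15% and 19.8%). The 4 enzymes called lower in Diff cells against U87 were near the share over all genes. All 34 genes together came to 1607 ± 115, 4537 ± 62 and 2386 ± 46.3 TPM.

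A further 42 genes of the sterol pathway, of which 36 passed the filter, were called in both directions in similar numbers. In GSCs 14 were called higher and 12 lower than in U87, where 25.3% and 23.3% of all genes were, around a median of 0.03 on the log2 scale. The counts for Diff cells were 9 and 7 against U87 (18.9% and 20.5% of all genes), around a median of -0.002, and 7 and 11 against GSCs (15% and 19.8%). The Diff counts against U87 were thus near the shares over all genes. Among receptors, VLDLR fell from 19.9 TPM to 1.58 TPM in GSCs (-3.02 ± 0.14, adjusted p 5.13e-07) and 1.63 TPM in Diff cells (-3.00 ± 0.14, adjusted p 8.62e-07), while LRP8 rose in both (1.04 ± 0.088 and 0.49 ± 0.088). LRP1, a large scavenging receptor for lipoproteins, averaged 428.5, 875.5 and 343.7 TPM in U87, GSCs and Diff cells, and Diff cells were below GSCs (-1.34 ± 0.090). SPRING1, which supports the protease that cleaves SREBP, was at 36.7 TPM in U87, and rose to 200.8 TPM in GSCs (2.42 ± 0.082, adjusted p 9.8e-08) and to 187.1 TPM in Diff cells (2.32 ± 0.082, adjusted p 1.93e-07).

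GRAMD1A and GRAMD1B, which carry cholesterol from the plasma membrane to the endoplasmic reticulum, rose in GSCs by 1.66 ± 0.092 and 1.13 ± 0.069; in Diff cells GRAMD1A was higher by 1.09 ± 0.092 and GRAMD1B differed by -0.073 ± 0.069 from U87 (adjusted p 0.447). PLTP, a lipid transfer protein, rose in GSCs by 1.15 ± 0.11. LBR, which has sterol C14 reductase activity like TM7SF2, fell by 1.70 ± 0.10 in GSCs and by 1.10 ± 0.10 in Diff cells on the log2 scale. The cholesterol esterifier SOAT2 was lower in both (-1.27 ± 0.19 and -0.995 ± 0.19), at 2.12 TPM in U87, and NCEH1, which hydrolyses cholesterol esters, was lower by -0.78 ± 0.10 and -0.56 ± 0.10. CH25H, which makes 25-hydroxycholesterol, averaged 7.19, 6.20 and 11.4 TPM and was higher in Diff cells than in U87 (0.62 ± 0.14) and than in GSCs (0.79 ± 0.14).

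Of 12 fatty acid genes under SREBP control, 11 were tested. In GSCs 7 were called higher and 3 lower than in U87, where 25.3% and 23.3% of all genes were. In Diff cells 6 were called higher and 2 lower than in U87, where 18.9% and 20.5% of all genes were. The numbers called lower were near those shares. SCD, the stearoyl-CoA desaturase, averaged 1587, 4465 and 2185 TPM in U87, GSCs and Diff cells, ACSS2, which makes acetyl-CoA from acetate, 32.7, 91.35 and 33.9 TPM, and FASN, the fatty acid synthase, 166.7, 432.2 and 279.6 TPM. These genes rose in GSCs by 1.502 ± 0.12, 1.46 ± 0.058 and 1.36 ± 0.096, and in Diff cells FASN was higher than in U87 by 0.74 ± 0.096 (adjusted p 0.000336) and SCD by 0.465 ± 0.12 (adjusted p 0.0162), while ACSS2 differed by 0.054 ± 0.058 (adjusted p 0.508). FADS2, a desaturase, was lower in both GSCs (-0.76 ± 0.11) and Diff cells (-0.86 ± 0.11). PNPLA3 was also lower in both (-0.375 ± 0.069 and -0.61 ± 0.069), and ELOVL6 was called lower in GSCs (-0.49 ± 0.10).

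Expression of the neighbours on the chromosome was read for each gene, as the median log2 fold change of up to 25 tested protein-coding genes on each side; copy number was not measured. This median was within 0.2 of 0 for 26 of the 33 genes in GSCs and for 29 in Diff cells, both against U87. IDI1 (chr10:1039152-1049170, GENCODE 29, GRCh38) was an exception, since its 29 neighbours had a median of -0.89 in GSCs and -0.87 in Diff cells against U87. Its own change of -0.945 in Diff cells was at the level of its neighbours, and its 0.76 in GSCs was above each of them. SC5D (chr11:121292453-121308694) had neighbours at 0.68 in GSCs and 0.52 in Diff cells, below its own 2.78 and 0.93. INSIG1 (chr7:155297776-155310235) had neighbours at 0.47 in GSCs and 0.53 in Diff cells, so its 0.32 in Diff cells was under their median. FDFT1 had neighbours at 0.31 in GSCs and 0.12 in Diff cells, and 11 of its 50 in GSCs lay above its own 1.53. CYP51A1 had neighbours at 0.60 in GSCs and 0.43 in Diff cells, above its own 0.30 and -0.056. DHCR7 had neighbours at -0.25 in GSCs and -0.081 in Diff cells, below its own 2.04 and 0.73. HMGCS1 (chr5:43289395-43313512) had neighbours at -0.095 in GSCs and -0.026 in Diff cells, NPC1 (chr18:23506184-23586898) at 0.27 and 0.16, and ABCA1 (chr9:104781002-104928237) at 0.018 and -0.004.

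**Figure D4:**
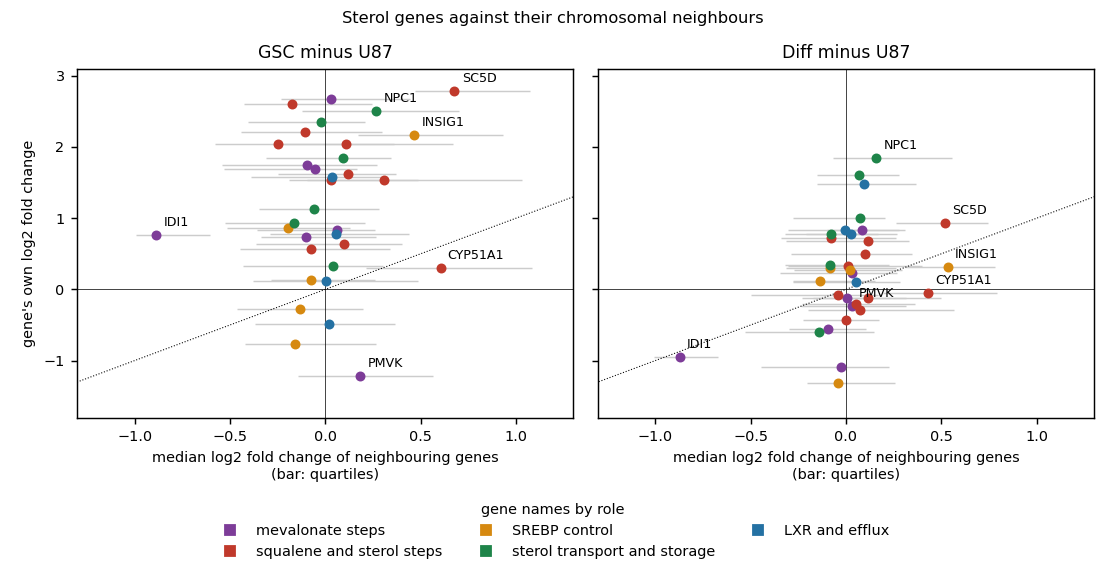
Log2 fold change of each of the 33 genes (vertical axis) against the median of its chromosomal neighbours (horizontal axis, with quartiles as bars) for GSCs against U87 (left) and Diff cells against U87 (right); the dotted line marks equal change. Most points stand above the line on the left, and IDI1 lies near it on the right, at -0.945 against -0.87.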

How the data were processed

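The 9 libraries covered U87 cells, GSCs and Diff cells, with 3 of each. The labels name Magzol extraction, removal of ribosomal RNA and a directional kit, whereas the paper's methods name Trizol and oligo(dT) enrichment. The submitters' processing notes list FastQC 0.11.9, Trimmomatic 0.39, HISAT2 2.2.1, featureCounts 2.0.5 and R 4.2.0 with GRCh38; the annotation and strand setting are not given in the sources used here. The deposited values are log2(TPM + 1). Back-transformed columns summed to 1000000, so depth is unknown and no counting interval was given.

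Genes with a mean TPM over 1 (22909) were fitted with limma 3.58.1 in R 4.3.3 (lmFit, contrasts.fit, eBayes with a trend) as 1 model of 3 groups, with Benjamini-Hochberg adjustment within each comparison. The fit was tested on simulated data first. The 34 genes and the other gene lists were chosen with earlier results of these data known. Text names all 34 genes, the markers, and from the other lists the called genes of largest change, up to 5 for each direction of a comparison. A total of 19 alternative settings was run. Gene positions are from GENCODE 29, promoters from RefSeq (GRCh38.p14). Python 3.11.15 with pandas 2.3.3 and matplotlib 3.10.9 served for tables and plots.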

Additional observations from a re-analysis of the deposited data

Results flagged for a closer look

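A total of 7 sterol genes was called in opposite directions in GSCs and in Diff cells against U87, with a difference between Diff cells and GSCs that passed the test itself (limma, adjusted over all genes). Of all 22909 genes, 444 (1.94%) met the same criteria. The comparisons share libraries, and calls in opposite directions against U87 already set GSCs and Diff cells apart. HMGCS1 was 1.75 above U87 in GSCs and -1.09 in Diff cells, a difference of -2.84 (adjusted p 1.04e-06). IDI1 (0.76 and -0.945, difference -1.71, adjusted p 3.44e-05), FDPS (0.74 and -0.56, difference -1.29, adjusted p 2.62e-06) and EBP (0.57 and -0.43, difference -1.01, adjusted p 0.000201) had the same order. The value of IDI1 in Diff cells was at the level of its chromosomal neighbours, whose median was -0.87. STARD4 differed by -0.92 (adjusted p 0.000389), and its own call in GSCs was lost without any of 5 libraries, among them GSC library 3 (0.217). ABCA1 ran the other way, at -0.49 in GSCs and 0.83 in Diff cells, a difference of 1.31 (adjusted p 1.41e-06). SREBF1 differed by 0.58 (adjusted p 0.00247), while both of its calls against U87 were lost when single libraries were left out.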

How the results depend on the processing

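Across 19 settings, 74 of 80 called gene values passed under each setting in which they were tested (18 for MYLIP, which like CYP51A1 was not tested at a mean TPM over 5), 6 were lost under at least 1, and 0 called values changed sign. Counts of called genes ran from 25 to 27 higher and 3 to 4 lower in GSCs against U87, from 14 to 18 and 6 to 7 in Diff cells against U87, and from 3 to 4 and 23 to 24 in Diff cells against GSCs. Replicate numbers did not pair the samples (correlations of same-numbered deviations from -0.042 to 0.049); with a replicate block 25, 16 and 3 genes were called higher and 3, 6 and 24 lower in these comparisons. Uncalled values near 0 changed sign: CYP51A1 in Diff cells against U87 to 0.0354 under quantile normalization and from -0.164 to 0.0801 on leaving out single libraries; NR1H2 in Diff cells against GSCs to 0.00424 under quantile normalization, 0.044 under median-ratio scaling and 0.0415 on rescaling without RN7SL1 and mitochondrial genes (-0.137 to 0.0756 without single libraries); and MYLIP in Diff cells against GSCs to 0.00183 with a pseudocount of 0.1, 0.141, 0.0531 and 0.0547 under the same scalings (-0.135 to 0.151 without single libraries). The cause was not tested. Depth is not kept in TPM, so its effect on genes near 1 TPM is unknown.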
